A study of Mus musculus with 59 samples.

Results

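Embryoid bodies containing motor neurons were exposed for 24 h to serum of mice at 9 weeks of age, and their RNA was read on exon arrays. The experiment described here is the set of 11 arrays titled from NCAR114 to HEMI124, out of 59 arrays in the series. It compares serum of hemizygous carriers of a mutant human SOD1 transgene (6 arrays, HEMI119 to HEMI124) with serum of their non-carrier littermates (5 arrays, NCAR114 to NCAR118). All donors were F1 progeny of the strains C57BL/6 and SJL, and the cells were made from the mouse embryonic stem cell line HGB3, which carries a fluorescent reporter. The arrays were taken as 2 blocks. The first holds non-carrier arrays NCAR114 and NCAR115 with carrier arrays HEMI119, HEMI120 and HEMI121, and the second holds non-carrier arrays NCAR116, NCAR117 and NCAR118 with carrier arrays HEMI122, HEMI123 and HEMI124. The parting follows the order of the sample list, since the labels name no batch. Each array stands for 1 serum sample. The study's methods describe small groups of assays, each run on its own batch of embryoid bodies. Nothing in the labels says whether the arrays of a block shared such a batch, or whether sera came from separate mice. The p-values therefore measure the spread between these arrays, which may be technical.

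In this kind of assay the cells are a sensor: whatever circulates in the serum is read through the genes that the cells turn up or down. The SOD1 carrier mouse is a model of amyotrophic lateral sclerosis (ALS), and motor neurons are the cells that the disease destroys. Embryoid bodies are mixed aggregates that hold motor neurons beside progenitors, interneurons, glia and other cell types. A response that serum, amino acid supply and protein folding all bear on is the integrated stress response, in which stress kinases phosphorylate the initiation factor eIF2, translation of the transcription factor ATF4 rises, and ATF4 with its partner CHOP (gene Ddit3) turns on genes of amino acid synthesis, amino acid uptake and tRNA charging.

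The values are deposited intensities for 19613 genes, used here as log2 values, in which a difference of 1 is a doubling. The median log2 intensity of an array lay between 7.25 and 7.39. Non-carrier array NCAR115 of the first block stood apart: it had the highest median, a mean correlation of 0.990 with the other arrays of its block, against 0.992 to 0.995 for the other 10 arrays, and a score of 31.9 on the first principal component (29.7% of the variance), where the next highest array scored 9.07. Among the second block, carrier array HEMI124 lay on the side of the non-carrier arrays for many of the genes below. Values without either array are given where they matter.

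Motor neuron markers were measured with both sera, and none of them passed the test between the sera. Mnx1 (the gene of the HB9 factor that specifies motor neurons) lay between 8.81 and 9.08 with non-carrier serum and between 8.70 and 9.21 with carrier serum. Its change was -0.02 ± 0.06 (SE). Isl1, a LIM factor of motor neurons, lay between 10.36 and 10.52 with non-carrier and between 10.51 and 10.69 with carrier serum. Its change of 0.15 ± 0.05 missed the threshold (adjusted p = 0.742, limma). Lhx3, which pairs with Isl1 in the motor neuron programme, had a change of -0.21 ± 0.07 and Olig2, a factor of motor neuron progenitors, of -0.11 ± 0.06. Chat, the enzyme that makes acetylcholine, had a change of 0.12 ± 0.05. Of 12 motor neuron markers 10 were measured, with a median change of -0.02, where the median over all genes was -0.002. In embryoid bodies, fewer cells of a type and less RNA per cell cannot be told apart. The cells' own Sod1 lay between 11.75 and 11.89 with non-carrier and between 11.49 and 11.91 with carrier serum, and the groups overlapped.

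The first comparison asks which genes differ between carrier and non-carrier serum within these 11 arrays. At an adjusted p of 0.05 (limma, block as a fixed effect) 0 genes passed, 0% of those tested, and the smallest adjusted p was 0.307. Without adjustment, 573 genes (2.92%) were higher and 629 (3.21%) lower at a p under 0.05. Within each block alone the count was also 0, with 632 genes at an unadjusted p under 0.05 in the first and 2265 in the second. The median SE of a gene's change was 0.08. Genes are therefore named here from the top ranks by moderated t, and not as calls.

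Neurod4, a basic helix-loop-helix factor of newly forming neurons, led the genes with higher values. It read 9.99 and 9.80 in the non-carrier arrays of the first block and 10.44, 10.53 and 10.50 in the carrier arrays. In the second block it read 10.08, 9.98 and 10.13 with non-carrier serum and 10.58, 10.62 and 10.29 with carrier serum. The sera did not overlap in either block, and the change was 0.51 ± 0.07 (adjusted p = 0.307, limma), a 95% interval of 0.35 to 0.67. Over all genes, the sera did not overlap across the 11 arrays for 0.724% and did not overlap in the same direction within both blocks for 1.77%. Neurod4 passed the threshold (adjusted p = 0.0210) when carrier array HEMI124 was left out, and also when dim genes were left out (0.0420) or when the variance was modelled with an intensity trend (0.0470).

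Rhbdd1, a rhomboid protease, read 7.46 and 7.38 against 7.78, 7.78 and 7.80, and then 7.33, 7.36 and 7.26 against 7.71, 7.71 and 7.41. The sera were separated within each block, but array HEMI124 lay just above the non-carrier arrays of its block. The change of Rhbdd1 was 0.33 ± 0.06. The olfactory receptor gene Olfr434 (0.77 ± 0.15) and the syntaxin Stx19 (0.33 ± 0.06) followed, both with higher values in all carrier arrays. Olfr434 lay between 3.62 and 3.89 with non-carrier serum, a range at the dim end of the array.

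Ifitm3, an interferon-induced membrane protein that restricts virus entry, led the genes with lower values. It read 8.55 and 8.36 with non-carrier serum of the first block, and 7.72, 7.86 and 7.87 with carrier serum. In the second block it read 8.86, 8.88 and 8.84 with non-carrier serum, and 8.42, 8.22 and 8.63 with carrier serum. Its change was -0.53 ± 0.08 (adjusted p = 0.307, limma), and it passed the threshold without carrier array HEMI124 (adjusted p = 0.0236) or with dim genes left out (0.0420). Reln, the secreted guidance protein reelin, read 8.64 and 8.47 against 8.27, 8.33 and 8.35 in the first block. In the second block its 3 non-carrier arrays read 8.80, 8.74 and 8.67, and its 3 carrier arrays all read 8.35. For Reln, array HEMI124 lay with the other carrier arrays of its block. Pdlim3, a PDZ and LIM protein of the actin cytoskeleton (-0.28 ± 0.05), the unnamed transcript C87414 (-0.73 ± 0.13) and the neural crest factor Tfap2b (-0.29 ± 0.05) followed, all 3 without overlap between the sera. For these 3 the adjusted p was 0.421 (limma).

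**Figure D1:**
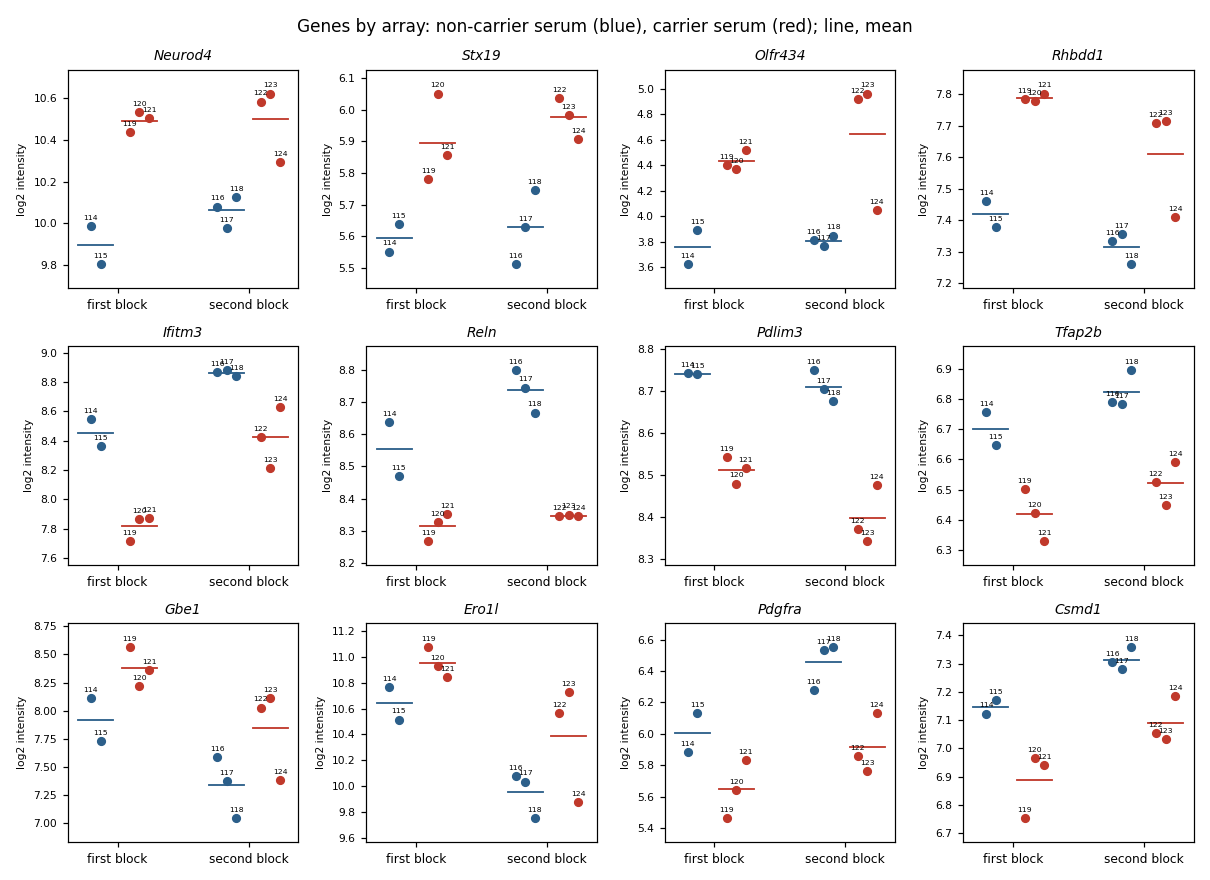
Log2 intensity (vertical axis) of 12 genes in each of the 11 arrays, non-carrier serum in blue and carrier serum in red, by block along the horizontal axis, with the array number at each point and the mean of each group as a line. In Neurod4, Olfr434, Stx19, Reln, Pdlim3 and Tfap2b all carrier arrays lie on the same side of all non-carrier arrays, whereas in Gbe1 and Ero1l carrier array HEMI124 lies among the non-carrier arrays of the second block.

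The second comparison asks whether the effect was the same in both blocks. At an adjusted p of 0.05, 0 genes (0%) differed in their effect between the blocks (limma, interaction of serum and block, smallest adjusted p = 0.555), while 1637 had an unadjusted p under 0.05. Across the 19613 genes, which are not independent replicates, the change in the first block and that in the second had a correlation of -0.14. With array NCAR115 left out, so that array NCAR114 was the only non-carrier array of the first block, it was 0.16. The sign of that correlation thus depended on array NCAR115. The median change over all genes was -0.05 in the first block and 0.02 in the second.

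The third comparison sets these arrays beside the other 8 runs of the series, where a run is a set of arrays that share a title name or a range of numbers. Their sera came from mice at 9 weeks of age except in 1 run of 6 arrays, titled as 10 weeks, and without that run the count of 344 given below was 250. In the 48 arrays of the other runs, which share no array with the 11, carrier serum lowered 918 genes (4.68%) and raised 683 (3.48%). The carrier effect in the 11 arrays differed from that of the other runs, at an adjusted p of 0.05 (limma, interaction with run as a fixed effect), in 344 genes, of which 180 (0.918%) were higher and 164 (0.836%) lower than in the other runs. In 334 of the 344 the change here and the change there had opposite signs, and in 336 the sign here was the same in both blocks. Over all genes, 8213 of 19613 had the same sign in both blocks. The 344 were picked by their difference from the other runs, which favours both counts, so neither is independent evidence. The interaction test takes arrays as replicates. When each run or block gave a single difference, so that 2 blocks stood against 8 runs, 0 genes passed (limma, smallest adjusted p = 0.0739) and 1993 had an unadjusted p under 0.05. The 344 thus passed against the spread between arrays, and none of them passed against the spread between runs. Across genes the effect here and the effect in the other runs had a correlation of -0.07. The 2 blocks lay on opposite sides of 0, with -0.30 for the first block and 0.19 for the second. Leaving out carrier array HEMI123 gave 110 genes, leaving out non-carrier array NCAR115 gave 152, and leaving out carrier array HEMI124 gave 908, which included all 344.

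Gbe1, the glycogen branching enzyme, had the largest moderated t among the upward differences. It read 8.11 and 7.73 against 8.56, 8.21 and 8.36 in the first block and 7.59, 7.37 and 7.04 against 8.03, 8.11 and 7.38 in the second. Its change here was 0.49 ± 0.15, against -0.23 ± 0.04 in the other runs, where 7 of 8 runs were lower, and the difference was 0.72 ± 0.11 (adjusted p = 0.000209, limma). Bbx, an HMG-box factor, had a change of 0.21 here and of -0.17 there, and was lower in all 8 other runs. Fbxl20, an F-box protein, did likewise (0.14 and -0.14). Rhbdd1, already among the leading genes here, had a change of -0.19 in the other runs, a difference of 0.52 ± 0.08. Ero1l, described with the hypoxia genes below, was the other gene of the 5.

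In the downward direction, Pdgfra, the growth factor receptor of oligodendrocyte precursors and mesenchymal cells, read 5.88 and 6.13 against 5.46, 5.64 and 5.83 in the first block. In the second it read 6.28, 6.54 and 6.55 against 5.86, 5.76 and 6.13. Its change was -0.46 ± 0.10 here and 0.11 ± 0.04 in the other runs, a difference of -0.57 ± 0.10 (adjusted p = 0.00109, limma). Csmd1, a membrane protein with complement control domains, had a change of -0.24 here and of 0.07 there, with higher values in carrier serum in all 8 other runs. Aff2, a nuclear protein of the transcription elongation machinery, had a change of -0.22 and 0.08. Ptpn5, the striatum-enriched phosphatase STEP, had a change of -0.31 and 0.04, and Adra2a, an adrenergic receptor, of -0.25 and 0.05. In each of these 5 genes the sera were separated within both blocks.

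The ATF4 and CHOP branch was followed in 4 lists, which held 67 measured genes. In the other runs 50 of them fell with carrier serum, against 4.68% of all genes, with a median change of -0.24. In the 11 arrays 0 passed, 25 were lower and 42 higher, and the median change was 0.02. The difference between the settings was positive in 60 of 67, where 7946 of 19613 genes had a positive difference. That sign was not particular to these lists, since 72 of 78 cytosolic ribosomal protein genes had it too, of which 0 passed the test. In the 4 lists the difference passed the test in 14 genes, all of them in the upward direction, against 0.918% of all genes. Without carrier array HEMI123 the number that passed was 0 in each of the 4 lists, and without non-carrier array NCAR115 it was 2, 1, 1 and 0 in place of 6, 3, 4 and 1. These lists were written with the response of the other runs known, so their direction there is no independent evidence. A fall there by itself makes the difference positive where the change here is near 0. The counts of differences are therefore no independent evidence either.

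Among the stress transcription factors and feedback genes, 15 of 18 had higher values with carrier serum and the list's median change was 0.11. It was -0.01 in the first block and 0.16 in the second. Atf4 itself had a change of 0.06 ± 0.06 here, against -0.32 ± 0.06 in the other runs, and the difference of 0.39 ± 0.12 missed the threshold (adjusted p = 0.0847, limma). Ddit3, which encodes CHOP, read 7.88 and 7.79 against 8.26, 7.89 and 7.87 in the first block. In the second block it read 7.48, 7.26 and 7.18 against 7.66, 7.90 and 7.32. Its change was 0.25 ± 0.11 here and -0.43 ± 0.07 elsewhere, a difference of 0.68 ± 0.16 (adjusted p = 0.0147, limma).

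Atf3, a stress-induced repressor and activator downstream of ATF4, read 6.84 and 6.64 against 7.05, 6.92 and 6.94, and then 6.66, 6.22 and 6.32 against 6.74, 6.95 and 6.57. It had a change of 0.30 ± 0.09 here and of -0.56 ± 0.10 elsewhere, where all 8 runs were lower, by 0.10 to 1.45. The difference was 0.85 ± 0.22 (adjusted p = 0.0276, limma). Ddit4, an inhibitor of the growth kinase mTORC1 (0.64 ± 0.17), and Cebpg, a dimer partner of ATF4 (0.59 ± 0.16), also differed, and Sesn2 (0.49 ± 0.13), a sensor in amino acid signalling, and the lipoprotein receptor Vldlr (0.41 ± 0.09) completed the 6 of this list. Trib3 and Chac1, feedback genes of the branch, had changes of 0.10 ± 0.08 and 0.13 ± 0.09 here. Their differences of 0.48 ± 0.14 and 0.69 ± 0.25 did not pass (adjusted p = 0.0634 and 0.153, limma). Herpud1, a protein of ER-associated degradation, had a change of 0.02 ± 0.06.

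Enzymes of amino acid and one-carbon synthesis had a median change of 0.02 here and of -0.30 in the other runs. There 13 of 16 fell, against 4.68% of all genes. Asns, asparagine synthetase, had a change of 0.10 ± 0.07 and -0.32 ± 0.06. Pycr1 (proline synthesis, difference 0.57 ± 0.13), Shmt2 (mitochondrial serine and glycine conversion, 0.44 ± 0.12) and Aldh18a1 (the first enzyme of proline synthesis, 0.39 ± 0.11) passed the test of the difference. Of 14 amino acid transporters, 10 fell in the other runs (median -0.24), against the same 4.68%, and the median here was 0.05. Slc7a3, a cationic amino acid transporter, read 6.92 and 6.96 against 7.21, 7.23 and 7.15, and then 6.80, 6.74 and 6.66 against 7.01, 7.16 and 6.85. It was separated within both blocks, with a change of 0.27 ± 0.06 against -0.63 ± 0.12 elsewhere. Slc7a1 (difference 0.57 ± 0.16), Slc3a2 (0.38 ± 0.10) and the glutamine carrier Slc1a5 (0.32 ± 0.09) differed as well. Of 19 cytosolic aminoacyl-tRNA synthetases, 12 fell elsewhere, against the same 4.68%. Cars alone passed the test of the difference (0.37 ± 0.10), where 1.75% of all genes did. The 16 mitochondrial synthetases had a median change of 0.002 here and of -0.002 in the other runs.

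With non-carrier serum 2 of the 4 lists lay at a lower level than in any other run. The mean log2 intensity of the stress factor list with non-carrier serum was 7.91 in the first block and 7.63 in the second, below the 7.97 to 8.74 of the other 8 runs. For the transporters it was 8.80 and 8.69, below 8.84 to 9.78. For the synthesis enzymes it was 8.70 and 8.63, against 8.67 to 9.61, and for the cytosolic synthetases it was 9.65 and 9.67, within the 9.59 to 10.15 of the other runs. For Slc7a3 it was 6.94 and 6.73, below 7.24 to 9.98. Whether that level bears on the change was not tested.

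**Figure D2:**
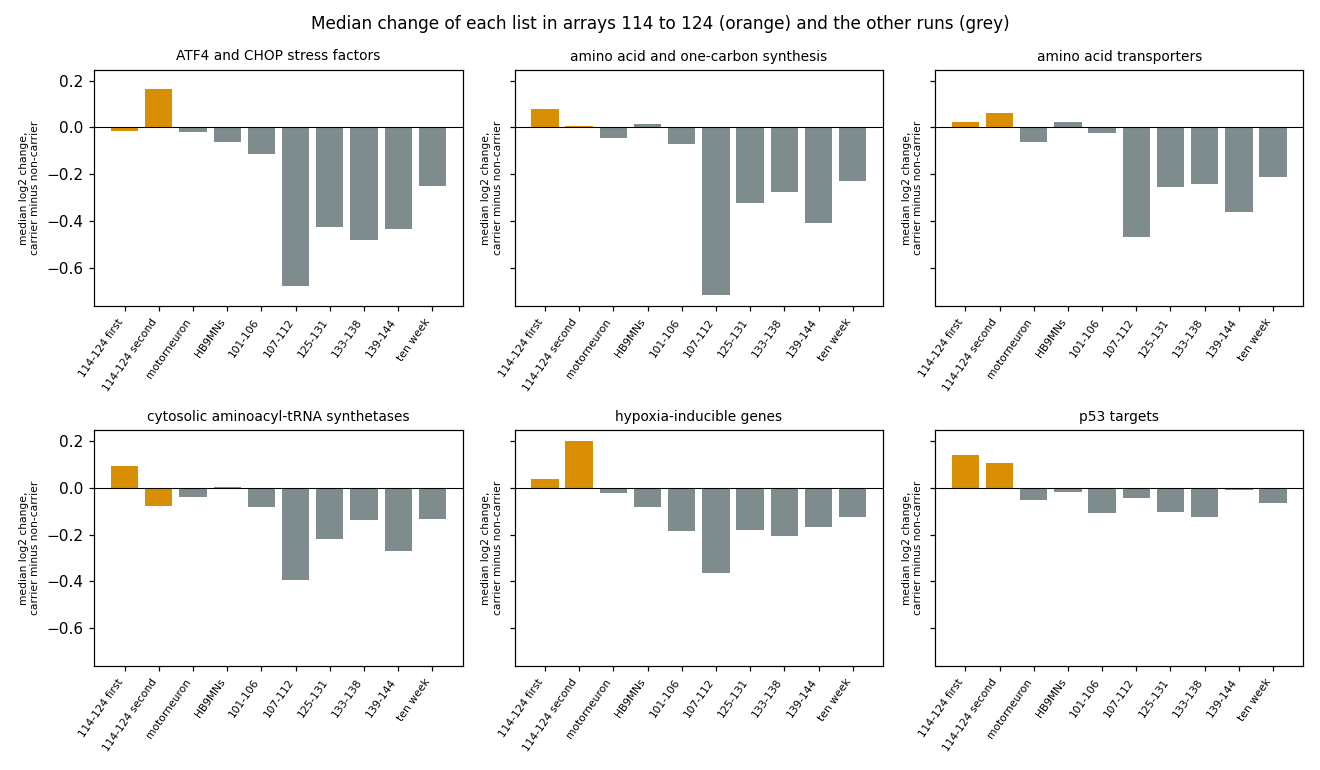
Median log2 change of each list's genes, carrier minus non-carrier (vertical axis), in the 2 blocks of arrays NCAR114 to HEMI124 (orange) and in the other 8 runs (grey). For the stress factors, the hypoxia-inducible genes and the p53 targets all 8 grey bars lie below 0, while 5 of the 6 orange bars lie above it.

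The motif that ATF4 and C/EBP dimers bind was looked for in RefSeq promoters (GRCm38.p6) in the 250 bases before each gene start, to show where it lies in genes that differed. Its letters are TGATGNAA, searched on both strands, and 3.45% of 32851 promoters held it. Counted by gene, with a match in any promoter, 3.15% of the 14518 array genes with a promoter in the table held it. Of the 67 members 53 had a promoter in the table and 14 of these held a match. Of the 14 genes of the 4 lists that passed the test of the difference, 11 had a promoter in the table and 3 held a match, of which the windows of Atf3 (chr1:191183411-191183468, minus strand) and Pycr1 (chr11:120643819-120643876, minus strand) are shown 5′ to 3′ with the match in capitals. In Atf3 the match reads on the opposite strand.
Atf3: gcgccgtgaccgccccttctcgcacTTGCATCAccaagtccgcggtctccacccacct
Pycr1: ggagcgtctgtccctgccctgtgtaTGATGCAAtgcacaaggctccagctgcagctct

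Hypoxia-inducible genes are those that HIF1 turns on when oxygen or its sensing falls. With carrier serum 17 of 20 members lay higher, where 9649 of 19613 genes did, with a median change of 0.11. In the other runs 15 of 20 fell, against 4.68% of all genes, with a median of -0.16. The difference passed in 6 members, all upward, against 0.918% of all genes. This list, too, was chosen with earlier results of these data known. Ero1l, the ER oxidase that drives disulfide bonding, read 10.77 and 10.52 against 11.07, 10.93 and 10.84 in the first block and 10.08, 10.04 and 9.75 against 10.56, 10.73 and 9.88 in the second. Its change was 0.38 ± 0.14 here and -0.27 ± 0.03 elsewhere, a difference of 0.64 ± 0.10 (adjusted p = 0.00024, limma). Ndrg1, a stress-responsive protein, read 9.68 and 9.55 against 10.07, 9.80 and 9.43, and then 8.68, 8.55 and 8.08 against 9.44, 9.45 and 8.48. Here the first block overlapped, and in the second arrays HEMI122 and HEMI123 were high and array HEMI124 was not. P4ha2, a collagen prolyl hydroxylase (difference 0.54 ± 0.12), and Slc2a1, the glucose carrier GLUT1 (0.45 ± 0.11), had the same pattern, and the hexokinase Hk2 (0.44 ± 0.10) and the vascular growth factor Vegfa (0.35 ± 0.10) completed the 6.

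The list's median was 0.04 in the first block and 0.20 in the second. With non-carrier serum its mean level was 9.99 in the first block and 9.42 in the second. In the second block the list's mean level was 9.53, 9.48 and 9.23 with non-carrier serum and 9.76, 9.88 and 9.28 with carrier serum. With each array left out in turn the median change ranged from 0.047, without array HEMI123, to 0.21, without array HEMI124. Without array HEMI123 the number of members that passed the test of the difference was 2 in place of 6, and without array HEMI124 it was 13.

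The core letters ACGTG of the element that HIF binds were searched in the same way. They occurred in 16.6% of all promoters. Counted by gene, with a match in any promoter, they occurred in 21.2% of the 14518 array genes with a promoter in the table. By the same count they occurred in 16 of the 19 list members with a promoter, and in each of the 5 differing members among these. The windows of Ero1l (RefSeq symbol Ero1a, chr14:45318606-45318660, minus strand, match on the opposite strand) and Slc2a1 (chr4:119108684-119108738, plus strand) are printed with the letters in capitals, Ero1l having the largest moderated t of the list for the difference and Slc2a1 being the carrier of glucose.
Ero1l: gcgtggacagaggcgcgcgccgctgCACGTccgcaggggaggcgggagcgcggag
Slc2a1: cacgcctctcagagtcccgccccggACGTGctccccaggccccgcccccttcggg

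Targets of p53, the factor that answers DNA damage and other stress, had 8 of 18 members at an unadjusted p under 0.05, all higher, against 2.92% of all genes. None passed the adjusted threshold. The median change was 0.09, with 0.14 in the first block and 0.10 in the second, and -0.05 in the other runs. Mdm2, the ligase that degrades p53, read 9.08 and 8.94 against 9.34, 9.36 and 9.35, and then 9.03, 9.09 and 9.11 against 9.39, 9.47 and 9.15. No carrier array overlapped with a non-carrier array, and its change was 0.30 ± 0.06. Cdkn1a, the cell cycle inhibitor p21, had a change of 0.27 ± 0.12, with 10.61 and 10.69 in carrier arrays HEMI122 and HEMI123 and 10.01 in array HEMI124. Eda2r (0.31 ± 0.11) and Tnfrsf10b (0.26 ± 0.09), a pair of receptors of the TNF receptor family, lay higher as well. The difference from the other runs passed in 7 of 18 members, all upward, against 0.918% of all genes. Among the 7 were Eda2r (0.55 ± 0.11), Cdkn1a (0.49 ± 0.10), Tnfrsf10b (0.36 ± 0.09) and Mdm2 (0.35 ± 0.08). Without array NCAR115 or without array HEMI123 it passed in 4. As a list mean, the 2 sera were separated in the first block, 8.54 and 8.56 against 8.75, 8.71 and 8.62. In the second block arrays HEMI122 and HEMI123 lay at 8.59 and 8.64, above the 8.44 to 8.46 of non-carrier serum, and array HEMI124 at 8.45 did not.

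**Figure D3:**
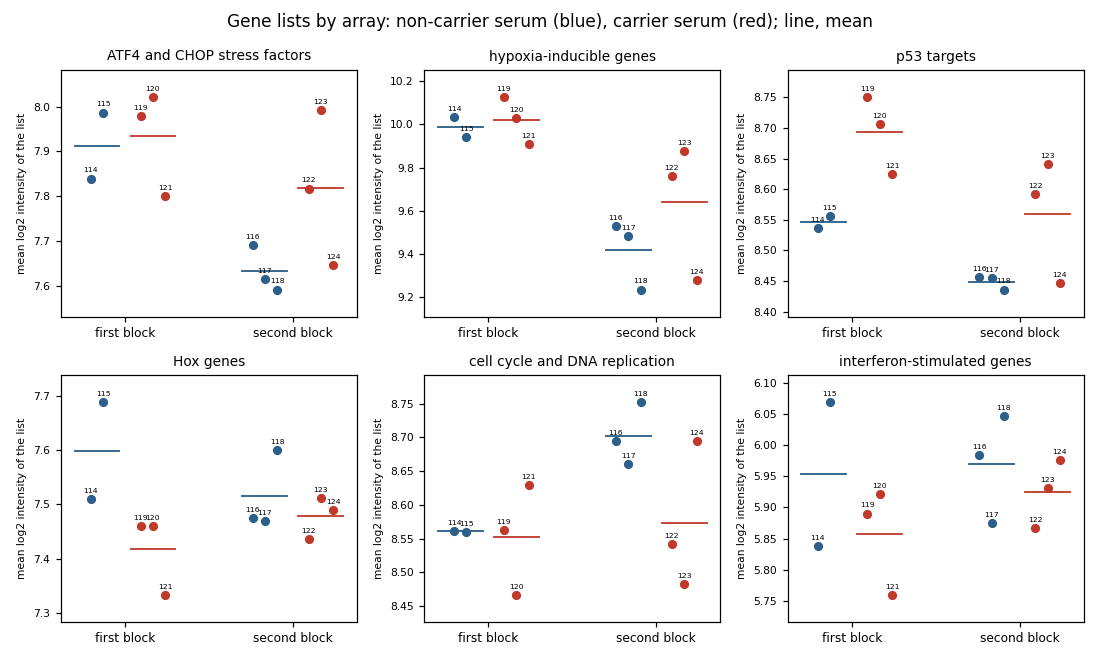
Mean log2 intensity (vertical axis) of the genes of 6 lists in each array, non-carrier serum in blue and carrier serum in red, by block, with the array number at each point and the group mean as a line. Carrier arrays HEMI122 and HEMI123 lie above the non-carrier arrays of their block for the stress factors, the hypoxia-inducible genes and the p53 targets, and array HEMI124 lies among or near them.

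Hox genes, which set position along the body axis, lay lower with carrier serum in 34 of 39, where 9964 of 19613 genes were lower in all. The median change was -0.09, with -0.17 in the first block and -0.08 in the second. At an unadjusted p under 0.05, 8 were lower, against 3.21% of all genes. Hoxa6 had the lowest change: it read 9.21 and 9.34 against 8.79, 9.13 and 9.12, and then 9.45, 9.42 and 9.41 against 9.10, 9.23 and 9.09, a change of -0.28 ± 0.07. Hoxc11 had the highest (0.25 ± 0.17), with -0.12 in the first block and 0.54 in the second. No Hox gene passed the test of the difference from the other runs, where the list's median was 0.04. Without array NCAR115, 26 of 39 were lower and the median was -0.07.

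Genes of the cell cycle and DNA replication were lower in 17 of 21, where 50.8% of all genes were, with a median change of -0.12. In the first block the list's median was -0.04, near the -0.05 of all genes. In the second block it was -0.11, against 0.02 for all genes. Plk1, a mitotic kinase, read 9.41 and 9.37 against 9.24, 9.18 and 9.11, and then 9.41, 9.38 and 9.53 against 9.33, 9.13 and 9.43. Its change was -0.17 ± 0.06 here and 0.12 ± 0.04 in the other runs, and the difference of -0.29 ± 0.08 passed (adjusted p = 0.0464, limma). No other member of the list differed, where 1.75% of all genes did. Bub1, a checkpoint kinase, had the highest change of the list at 0.12 ± 0.07. Myc, a growth-promoting transcription factor, was the only immediate-early or serum response gene that differed from the other runs. It had a change of -0.38 ± 0.10 here and of 0.02 ± 0.04 there, and was separated within both blocks.

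Of 22 measured interferon-stimulated genes 16 were lower, where 50.8% of all genes were, with a median change of -0.04. At an unadjusted p under 0.05, 6 were lower, against 3.21% of all genes. In the first block 19 of the 22 were lower (median -0.08), and in the second 11 were (median 0.0001). Bst2, which tethers virus particles, had the highest change at 0.14 ± 0.11. None of them passed the test of the difference. Without array NCAR115, 12 of 22 were lower. Of the circadian clock genes 10 of 12 were higher, where 9649 of 19613 genes were, with a median of 0.07. Against 0.918% of all genes, 3 of the 12 differed upward from the other runs, namely Per1 (0.34 ± 0.09), Nr1d2 (0.32 ± 0.08) and Per3 (0.29 ± 0.07). Without carrier array HEMI123, 0 of these 3 passed, and without non-carrier array NCAR115, 1 did.

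Receptors and disease genes of motor neurons were read too. The AMPA receptor subunit Gria1 read 7.77 and 7.64 against 7.41, 7.49 and 7.59, and then 7.94, 8.04 and 7.96 against 7.64, 7.51 and 7.94, a change of -0.25 ± 0.08. It and the auxiliary subunit Cacng2 (-0.16 ± 0.06) differed from the other runs, by -0.34 ± 0.07 and -0.25 ± 0.07. Of the 12 genes of that list these 2 differed, where 1.75% of all genes did, and 9 were lower, where 50.8% were. Among 26 genes of inherited ALS and of stress granules 13 were lower, with a median of -0.005. The kinase gene Nek1 alone of the 26 differed from the other runs, where 1.75% of all genes did. It had a change of 0.26 ± 0.10 here and -0.12 ± 0.02 there, and carrier array HEMI124 lay far from the other carrier arrays (8.35).

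Among markers of other neural cells, the ventral progenitor, interneuron and glial lists each held 1 member that differed from the other runs, where 1.75% of all genes did. Olig1, a factor of oligodendrocyte and motor neuron progenitors, read 8.84 and 9.16 against 8.40, 8.60 and 8.66, and then 8.96, 9.17 and 9.12 against 8.65, 8.68 and 8.84. Its change was -0.40 ± 0.08, and the difference from the other runs lay just outside the threshold (adjusted p = 0.0503, limma). Neurog1, a proneural factor, had a change of 0.23 ± 0.12 and differed by 0.40 ± 0.11. Of 14 ventral progenitor markers 10 were lower (median -0.04). Of 17 interneuron markers 13 were lower (median -0.05), but only 6 without array NCAR115. Of 10 glial markers 7 were lower (median -0.05), and Aldh1l1, an enzyme of astrocytes and radial glia, had a change of -0.31 ± 0.12.

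Markers of cell types outside the central nervous system were followed in 8 lists with 79 measured members, of which 44 were lower, where 50.8% of all genes were, and 2 differed from the other runs, where 1.75% of all genes did. Both counts were near the background. These were Pdgfra, counted among the mesenchymal genes, and the pluripotency factor Esrrb (-0.23 ± 0.05 here). The medians of the 8 lists lay between -0.11 and 0.06. The lowest was that of the 6 neural crest and Schwann lineage markers, among which Sox10, which also marks oligodendrocytes, had the lowest change at -0.21 ± 0.08. Array NCAR115 stood apart in these lists, and its mean level was the highest of the 5 non-carrier arrays for pluripotent, leukocyte, endothelial, endoderm and muscle markers, at 6.27, 6.47, 5.88, 6.34 and 6.54. Without it the median change of the pluripotent markers was 0.08 in place of -0.006, that of the mesenchymal markers 0.03 in place of -0.06, and that of the neural crest markers -0.04. Only 3 of 10 red blood cell markers were measured, none with an unadjusted p under 0.05. The part of these cells in the results above was not tested.

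The other 15 lists had medians between -0.06 and 0.03. They cover ER chaperones, heat shock proteins, sterol, lipid and fatty acid genes, glucocorticoid, TGF-beta, NRF2, retinoic acid and hedgehog targets, ribosomal and complex I proteins, and the axon cytoskeleton. Of their 293 members, 9 had an unadjusted p under 0.05, where 6.13% of all genes did, and 5 differed from the other runs, where 1.75% of all genes did, so neither count stood above the background. Besides Per1 and Myc these were the mitochondrial chaperone Hspa9 (difference 0.37 ± 0.08), the retinal reductase Dhrs3 (-0.41 ± 0.09) and the hedgehog-binding protein Hhip (0.55 ± 0.13). Among the 19 ER chaperones and ATF6 or XBP1 targets, the changes ran from Creld2 at -0.17 ± 0.11 to Dnajb9 at 0.25 ± 0.09, with a median of 0.007, and none differed from the other runs.

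The genes that the study used as features of its classifier were chosen on arrays that include these, so their counts are not independent of the data. In the 11 arrays 73 of them were lower and 61 higher with carrier serum. Their median change was -0.01, against -0.08 in the other runs. There 65 of them fell and 6 rose, against 4.68% and 3.48% of all genes. The 38 of them marked as ATF4 or CHOP targets had a median change of 0.03 here and of -0.23 elsewhere. Of these 38, 36 fell elsewhere, against 4.68% of all genes. In 37 of the 38 the difference between the settings was positive, where 7946 of 19613 genes had a positive difference. In 9 it passed the test, all upward, against 0.918% of all genes.

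**Figure D4:**
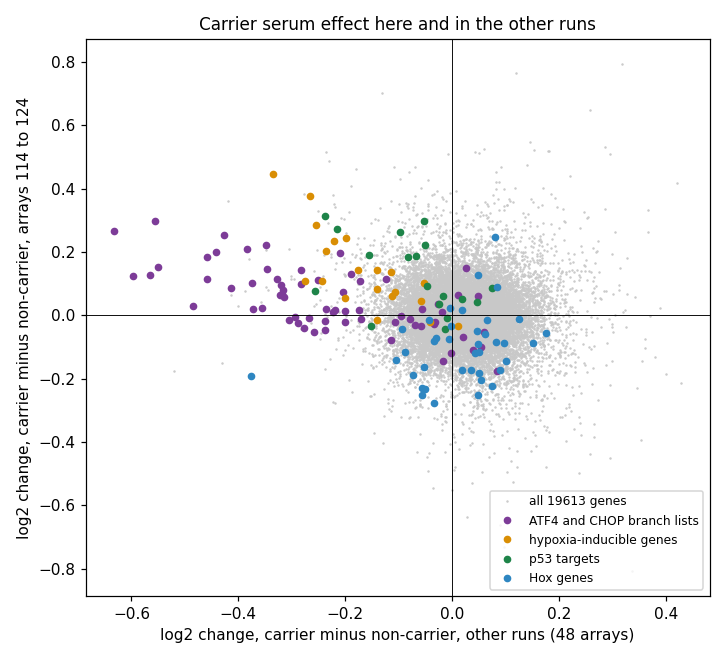
Log2 change with carrier serum in arrays NCAR114 to HEMI124 (vertical axis) against that in the 48 arrays of the other runs (horizontal axis), 1 point per gene, with the 19613 genes in grey and the ATF4 and CHOP branch lists, hypoxia-inducible genes, p53 targets and Hox genes in colour. The ATF4 and CHOP genes spread to the left of 0 and lie on both sides of 0 vertically, with 42 of 67 above it.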

How the data were processed

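RNA of embryoid bodies was hybridised to Affymetrix exon arrays, 1 array per serum sample. Per the labels and the study's methods, the authors summarised and normalised the arrays by RMA, averaged exons to genes, normalised all arrays together and removed outlying arrays. Each gene has 1 deposited intensity per array, not yet logged. Whether exons were averaged on the log or linear scale is not given in the sources used here. Log2 was taken with a pseudocount of 0. Serum effects were tested with limma 3.58.1 in R 4.3.3, with block or run as a fixed effect and Benjamini-Hochberg adjustment over 19613 genes at a threshold of 0.05. Differences from the other runs were tested as an interaction in 1 fit of 59 arrays. The fits were tested on simulated data. The number of arrays limits the precision, since no depth exists for arrays.

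Named were, with no gene past the threshold, the 5 genes of largest moderated t in each direction, the 5 largest differences from the other runs in each direction, Olig2, Mnx1, Isl1, Lhx3, Sod1, Atf4, Ddit3, Atf3, Asns, Herpud1, Trib3 and Chac1, and from each list up to 4 members called in the difference from the other runs, or else its lowest and highest member. Olig1, Sesn2, Vldlr, Hk2 and Vegfa were added after their values were seen. Some genes that the rule names are not reported here. The genes and lists were chosen with earlier results of these data known. A list is described by counts and its median. Alternatives were other treatments of block, arrays left out, scaling, a pseudocount of 16, a filter on dim genes, other variance models and covariates. Promoters were read from RefSeq (GRCm38.p6).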

Additional observations from a re-analysis of the deposited data

Results flagged for a closer look

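Single arrays lay far from the rest of their group in 12 of 156 groups of values tested, where chance alone flags about 1 group in 20. Carrier array HEMI124 was the low one among the 6 carrier arrays for Rhbdd1 (7.41), Pycr1 (9.05), Slc2a1 (11.5), Cdkn1a (10.01), Nek1 (8.35), Vldlr (9.71) and Vegfa (9.94), and the high one for Gpr17 (7.38). Carrier array HEMI119 was the low one for Reln (8.27) and Hoxa6 (8.79). Non-carrier array NCAR118 was the high one for Plk1 (9.53), and NCAR115 was the low one for Dnajb9 (8.88).

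The carrier effect differed from that of the other 8 runs in 344 genes by limma's interaction test, and in 0 when each run gave 1 value. The named genes among them that lay higher here had differences, on the log2 scale, of Slc7a3 (0.90), Atf3 (0.85), Ndrg1 (0.78), Gbe1 (0.72), Ddit3 (0.68), Ddit4 (0.64), Ero1l (0.64), Cebpg (0.59), Slc7a1 (0.57), Pycr1 (0.57), Hhip (0.55), Eda2r (0.55), P4ha2 (0.54), Rhbdd1 (0.52), Neurod4 (0.52), Sesn2 (0.49), Cdkn1a (0.49) and Slc2a1 (0.45). The rest that lay higher were Nhlh1 (0.45), Shmt2 (0.44), Hk2 (0.44), Vldlr (0.41), Neurog1 (0.40), Nek1 (0.39), Aldh18a1 (0.39), Bbx (0.38), Slc3a2 (0.38), Cars (0.37), Hspa9 (0.37), Tnfrsf10b (0.36), Mdm2 (0.35), Vegfa (0.35), Per1 (0.34), Nr1d2 (0.32), Slc1a5 (0.32), Per3 (0.29), Fbxl20 (0.28), Ebf2 (0.24) and Chat (0.18). Those that lay lower were Ifitm3 (-0.64), Gpr17 (-0.60), Pdgfra (-0.57), Aldh1l1 (-0.42), Dhrs3 (-0.41), Myc (-0.39), Tfap2b (-0.35), Ptpn5 (-0.35), Gria1 (-0.34), Csmd1 (-0.31), Reln (-0.31), Aff2 (-0.30), Adra2a (-0.30), Plk1 (-0.29), Cspg5 (-0.26), Cacng2 (-0.25) and Esrrb (-0.24).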

How the results depend on the processing

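No paired analysis was possible because the array numbers of the 2 sera are not shared. The count of genes changed with carrier serum stayed at 0 under no block term, a random block, either block alone, median centring, quantile normalization, a pseudocount of 16, array weights and covariates. It was 45 with the spread shared over all 59 arrays, 2 with dim genes left out, 1 with an intensity trend and robust variance, and 0 to 4 with each array left out in turn, where the 4 came without HEMI124. The count of differences from the other runs (344) was 74 with the first block alone, 64 with the second, and 110 to 908 with each array left out, including 152 without NCAR115, 158 without NCAR118 and 170 without HEMI122. With alternatives chosen after seeing the data it was 0 with 1 difference per run, 749 without the run titled motorneuron and 165 without the run numbered next after these arrays. Of 56 named differences, 6 to 34 missed the threshold when 1 array other than HEMI124 was left out, and 0 without HEMI124. With the first block alone 42 of the 56 missed it, with the second block alone 39, and with 1 difference per run all 56. None changed sign in any of 1390 values. The 56 were taken because they passed, and most settings reuse the same arrays, so the steady sign is no independent evidence.

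Of 78 named gene changes, 58 kept their sign throughout. With the first block alone the sign turned for Mnx1 (0.048), Herpud1 (-0.019), Trib3 (-0.037), Ddit4 (-0.041), Slc1a5 (-0.056), Creld2 (0.0072), Bst2 (-0.043), Vegfa (-0.018) and Hoxc11 (-0.12), and with the second for Atf4 (-0.00059). With the levels of Olig2, Mnx1, Isl1 and Lhx3 as covariates it turned for Sod1 (0.085), Atf4 (-0.091), Asns (-0.14), Cebpg (-0.24), Aldh18a1 (-0.056), Cars (-0.034), Dnajb9 (-0.012), Hspa9 (-0.11), Dhrs3 (0.048), Hhip (-0.027) and Nhlh1 (-0.058). With each array left out, Mnx1 ranged from -0.049 to 0.0086 and Herpud1 from -0.0096 to 0.066. The cause was not tested. Of 615 list medians 16 moved by more than the spread between arrays. All 16 came with 1 block alone.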

Other observations

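A pair of gene groups not described above lay on opposite sides of 0 in these arrays. Both lists were written after the values were seen, so they carry no test. Of 22 genes of oligodendrocyte precursors and oligodendrocytes 20 were measured, and 15 were lower with carrier serum, 9 of them at an unadjusted p under 0.05, where 3.21% of all genes were. The median change was -0.13, with -0.18 in the first block and -0.13 in the second, against 0.03 in the other runs. The receptor Gpr17, which marks precursors on the way to myelination, had a change of -0.49 ± 0.14 and differed from the other runs by -0.60. The proteoglycan Cspg5 had a change of -0.27 ± 0.06, with no overlap between the sera, and Olig1 and Pdgfra are described above. The 5 members that were not lower, Mbp, Mog, Mag, Ugt8a and Enpp6, had changes between 0.007 and 0.06. Of the 20 members, 5 differed from the other runs, all downward, against 0.836% of all genes.

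Among 20 neurogenic transcription factors and Notch ligands of newborn neurons 16 were higher, 5 of them at an unadjusted p under 0.05, where 2.92% of all genes were. The median change was 0.05 in the 11 arrays and -0.004 in the other runs. Besides Neurod4, Nhlh1 had a change of 0.38 ± 0.13, with no overlap between the sera, and Ebf2 of 0.25 ± 0.06, both helix-loop-helix factors of young neurons. The 4 lower members included close relatives of these genes: Neurod6 (-0.16), Ebf3 (-0.10) and Nhlh2 (-0.09), with Hes6 (-0.04). Of the 20 members, 5 differed from the other runs, all upward, against 0.918% of all genes.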
